A study of Mus musculus with 79 samples.

Results

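The interferon response and GBP genes described here were 38 genes chosen by name: transcription factors of the interferon pathway, cytosolic RNA sensors, feedback regulators, antiviral effectors, membrane restriction factors, interferon-inducible GTPases and genes of antigen processing. All 38 were found by symbol among the 20465 genes of the expression table. Mouse T cells were labelled with CFSE, a dye that is diluted at each division, and cultured under cytokines that make T helper 17 (Th17) cells. IL1b, IL6 and IL23 gave the pathogenic kind (Th17p), and TGFb with IL6 the non-pathogenic kind (Th17n). The cytokines that the labels name include no interferon. Cultures of both types received EGCG at 20 µM or its solvent DMSO, or DHEA at 50 µM or its solvent, labelled Methanol. The abbreviations are commonly used for epigallocatechin gallate, a polyphenol of green tea, and dehydroepiandrosterone, a steroid. RNA was taken from unsorted cells (Total), which can include cells of any number of divisions, and from cells sorted after exactly 1 division (Div.1). This gave 16 groups of 5 libraries, with 4 in the DMSO Div.1 group of each type, or 78 libraries. The labels speak of 5 mice per condition, and strain, age and sex are not given in the sources used here. 1 further library, from well A4, carries the label Th17n DMSO Div.1, while its neighbours A1, A2, A3 and A5 are all Th17p DMSO Div.1. It was left out of all comparisons. As given at the end, its levels of Irf8, Ifih1, Ifitm3, Ifitm2, Gbp4, Socs1 and Ifi35 lay within the Th17p DMSO Div.1 range. They lay outside the Th17n DMSO Div.1 range, while Gbp2 lay between the ranges and Psmb8 above both. Where it was placed in its labelled group as an alternative, it also entered the spread that the fit pools over all groups. Comparisons that do not hold that group could then lose calls with the log2 change unaltered.

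Levels are in TPM, a transcript abundance scaled for transcript length and library size, and a gene was tested where at least 4 libraries reached 1 TPM. Differences are log2 changes on the log2(TPM + 1) scale, which understates the change of genes at low TPM, and calls were made at an adjusted p under 0.05 with limma over the 10672 genes tested. The depth of the libraries is unknown from TPM. Between 9338 and 9845 genes reached 1 TPM per library. The summed T cell markers (Cd3e, Cd3g, Cd4, Lck and Cd28) ran from 905 to 1417 TPM, and the Th17 cytokine gene Il17f was above 0 in every library. The summed Th17 markers (Il17a, Il17f, Ccr6 and Il23r) ran from 101 to 8497 TPM. Summed markers of macrophages, monocytes and neutrophils stayed at or below 1.69 TPM, and those of dendritic cells at or below 2.20 TPM. Of the plasmacytoid dendritic cell markers other than the member Bst2, 5 summed to at most 2.08 TPM, with Siglech listed at 0 in 50 of 78 libraries. In bulk RNA, fewer cells of a type and less RNA per cell cannot be told apart.

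Interferons of type I bind the receptor chains IFNAR1 and IFNAR2 and signal through the kinases JAK1 and TYK2 to a complex that holds STAT2 and IRF9 and binds interferon-stimulated response elements (ISRE) in promoters. Interferon gamma binds IFNGR1 and IFNGR2 and signals through JAK1 and JAK2 to STAT dimers, which bind gamma-activated sites (GAS). The STAT dimers of other cytokines bind sites of the same letters, and IRF1 and IRF8 are transcription factors that are themselves targets of the pathway. Many of its targets are also expressed at a basal level in T cells that have met no added interferon.

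Promoters of 5 members are shown because they carry the elements named above and because these genes span the range of what was measured: Irf8 and Irf1, the factors that moved in opposite ways between the cell types, Gbp2 and Ifitm2, which were far higher in Th17p, and Isg15, a standard interferon target that stayed at or below 3.11 TPM. Each line gives the 250 bases before the start of the gene, 5′ to 3′ on the strand of the gene, from RefSeq on GRCm38.p6, with the letters of an ISRE (GAAA, any 2 bases and GAAA again, or its complement) or of a GAS (TTCNNNGAA) in capitals. Irf8 (chr8:120736108-120736357, plus strand) and Irf1 (chr11:53769764-53770013, plus strand) hold GAS letters, at 2 places and at 1. Gbp2 (chr3:142620413-142620662, plus strand), Ifitm2 (chr7:140955962-140956211, minus strand) and Isg15 (chr4:156200819-156201068, minus strand) hold ISRE letters, which in Gbp2 lie on the opposite strand and in Isg15 are 3 matches that run into each other.
Irf8: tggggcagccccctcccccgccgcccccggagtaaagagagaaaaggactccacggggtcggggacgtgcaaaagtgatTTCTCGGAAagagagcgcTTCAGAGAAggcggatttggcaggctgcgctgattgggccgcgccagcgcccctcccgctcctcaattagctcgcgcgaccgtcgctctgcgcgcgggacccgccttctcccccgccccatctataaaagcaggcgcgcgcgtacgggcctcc
Irf1: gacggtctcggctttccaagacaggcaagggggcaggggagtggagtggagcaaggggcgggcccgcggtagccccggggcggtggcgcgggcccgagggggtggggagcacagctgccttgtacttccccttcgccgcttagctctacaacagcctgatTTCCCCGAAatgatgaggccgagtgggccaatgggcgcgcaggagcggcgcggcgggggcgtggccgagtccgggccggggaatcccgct
Gbp2: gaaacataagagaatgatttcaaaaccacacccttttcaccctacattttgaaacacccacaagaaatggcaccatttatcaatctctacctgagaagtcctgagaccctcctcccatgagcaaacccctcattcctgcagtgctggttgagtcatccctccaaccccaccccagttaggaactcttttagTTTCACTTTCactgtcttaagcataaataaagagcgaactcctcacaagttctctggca
Ifitm2: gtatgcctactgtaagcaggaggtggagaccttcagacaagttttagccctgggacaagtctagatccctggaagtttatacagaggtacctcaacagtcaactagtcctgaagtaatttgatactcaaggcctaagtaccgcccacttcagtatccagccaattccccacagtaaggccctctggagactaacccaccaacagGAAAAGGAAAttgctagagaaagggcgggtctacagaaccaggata
Isg15: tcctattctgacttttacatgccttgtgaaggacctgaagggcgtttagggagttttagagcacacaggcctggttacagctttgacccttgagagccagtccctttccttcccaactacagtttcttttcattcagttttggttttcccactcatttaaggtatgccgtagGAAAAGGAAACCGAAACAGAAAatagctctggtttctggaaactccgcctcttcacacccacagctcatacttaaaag

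Of the 38 members, 30 had a promoter in the RefSeq table, and Usp18, Gbp4, Gbp6, Iigp1, Dhx58, Oas2, Mx1 and Rtp4 had none. In the 300 bases from 250 before to 50 after the start, on either strand, ISRE letters were found in 17 of these 30 members (56.7%) and in 3.99% of the 27025 genes with a promoter in the table. GAS letters were found in 11 of 30 members (36.7%) and in 9.55% of all genes. Gbp5, Gbp7, Igtp, Ifitm3 and Bst2 held both, and in Ifitm3 and Bst2 matches of the motifs overlapped each other. In Ifih1, Ddx58 and Ifitm3 the ISRE letters lay after the start. A match is a run of letters and not a measured site, and 7 members with a promoter held neither run in this window.

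Position grouped the members as well. On chromosome 3, Gbp5, Gbp7, Gbp3 and Gbp2 lie on the same strand with 7997 bases between Gbp5 and Gbp7, 9876 between Gbp7 and Gbp3, and 47392 between Gbp3 and Gbp2. On chromosome 7, Ifitm1, Ifitm2 and Ifitm3 are close neighbours, and so are Ifit2, Ifit3 and Ifit1 on chromosome 19. On chromosome 17, the annotated spans of Psmb9 (minus strand) and Tap1 (plus strand) overlap by 212 bases, and Psmb8 starts 495 bases beyond the end of Tap1. Members of the Gbp, Ifitm and Irgm families are similar in sequence, so reads may have been divided between them, and whether strand was used in the quantification is not given in the sources used here.

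The part of the pathway that was expressed was uneven. Psmb8, an immunoproteasome subunit, had the highest level of the 38, at 264 to 726 TPM, followed in the median library by Bst2 (tetherin), Psmb9, Igtp and Gbp2. By contrast, the classical targets of type I interferon Ifi44, Mx1, Oas2, Oasl1, Rsad2 and Rtp4 were below 1 TPM in every one of the 78 libraries. Irf7, Ifit1, Ifit3 and Iigp1 were below 1 TPM in every group mean, with single libraries reaching 1.49 TPM for Irf7, 1.79 TPM for Ifit1, 1.19 TPM for Ifit3 and 2.89 TPM for Iigp1. The first 9 of these 10 genes did not reach 1 TPM in 4 libraries and were not tested, which left 29 members. Gbp3, Iigp1, Ifitm1 and Isg20 were tested although listed at 0 in 55, 50, 35 and 22 libraries. Between 17 and 27 members reached 1 TPM in a library.

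**Figure D1:**
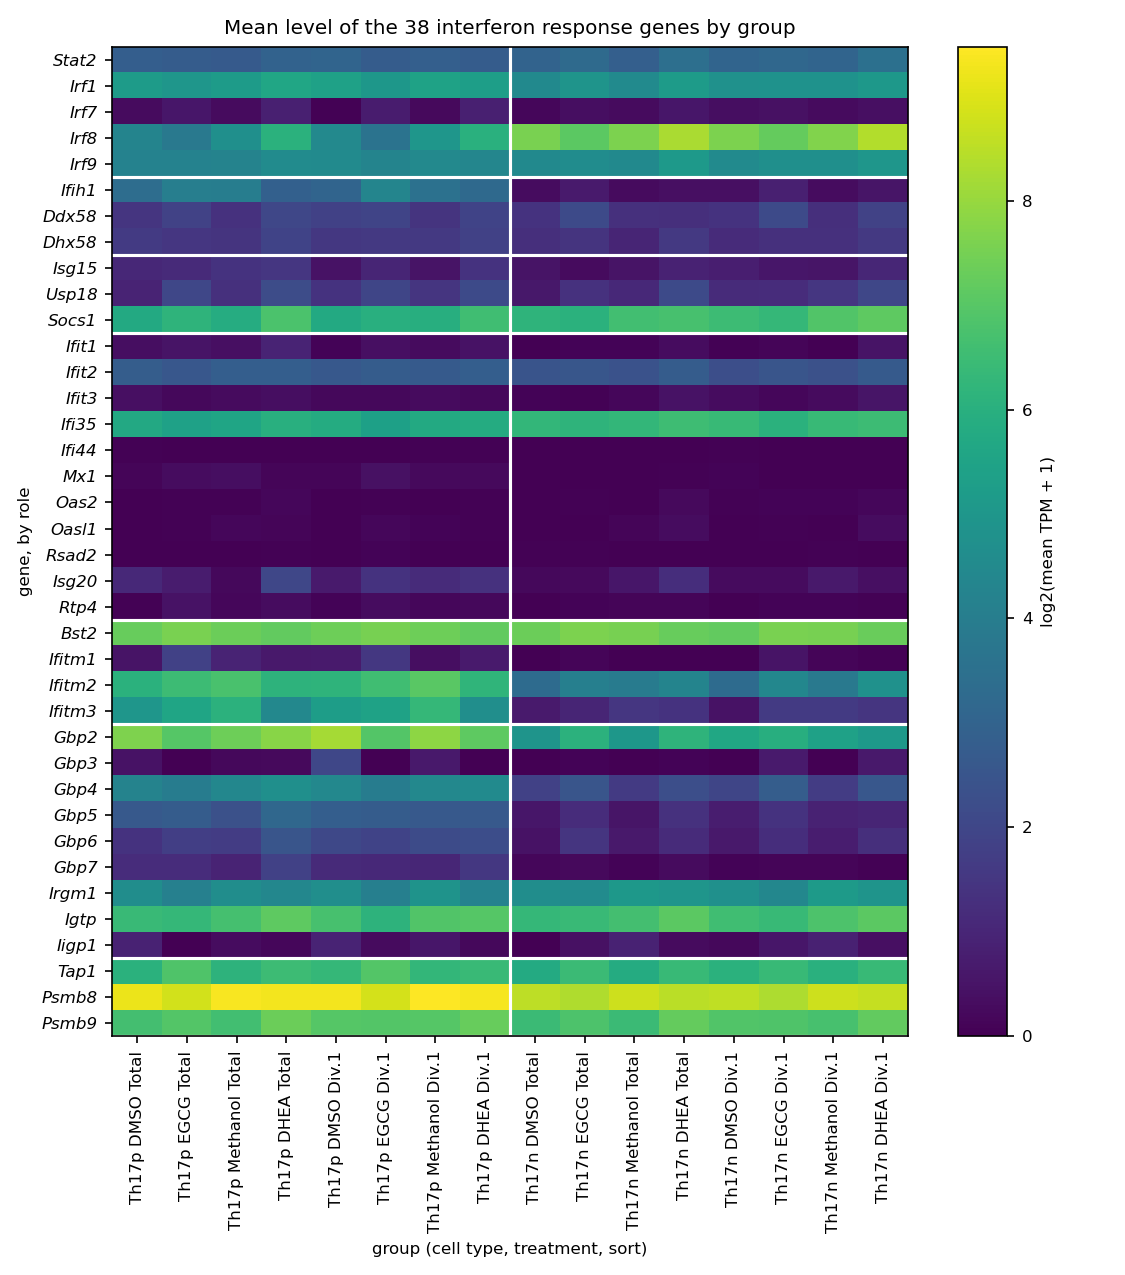
Mean TPM of each of the 38 genes in each of the 16 groups, as log2(mean TPM + 1), with genes in rows by role (white lines between roles) and groups in columns (a white line between Th17p and Th17n). Psmb8, Bst2, Tap1 and Psmb9 are bright in every column, Ifi44, Mx1, Oas2, Oasl1, Rsad2 and Rtp4 are dark in every column, and Ifih1, Ifitm3, Ifitm2 and Gbp2 are brighter in Th17p while Irf8 is brighter in Th17n.

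The genes of the interferons themselves were near or at 0. Ifna1 was listed at 0 in all 78 libraries, Ifna2 and Ifnb1 in 77, Ifna4 in 74 and Ifng in 66, with a highest Ifng value of 3.10 TPM. The receptors were expressed, with medians of 17.01 TPM for Ifnar1, 28.3 TPM for Ifnar2, 36.95 TPM for Ifngr1 and 32.6 TPM for Ifngr2. Ifnlr1, the receptor chain particular to type III interferons, was at or below 0.362 TPM.

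The comparison of the cell types asked which members separate pathogenic from non-pathogenic Th17 cells, over both solvents (10 libraries each in Total, 9 each in Div.1). Ifitm3, Ifitm2, Ifih1 and 5 Gbp genes were higher in Th17p in both sorts, and Irf8, Socs1 and Ifi35 were higher in Th17n. In Total, 17 of 29 members were higher in Th17p and 7 lower, or 82.8% called, where of all genes 30.9% higher and 26.5% lower, 57.4% in all, were called, and the median log2 change was 0.28 for the members and 0.02 for all genes. In Div.1 the counts were 17 and 4, or 72.4%, where of all genes 34.9% higher and 25.7% lower, 60.6% in all, were called, with medians of 0.3 and 0.04. Differences between the types were common among all genes.

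Ifitm3, an interferon-induced transmembrane protein that restricts the entry of viruses, had 24.3, 26.3, 31.3, 32.2 and 39.6 TPM in the 5 libraries of Th17p DMSO Total. In Th17n DMSO Total it had 0, 0, 0.505, 1.08 and 1.38 TPM. Every Th17p library was far above every Th17n library (log2 change 4.51 with SE 0.19, adjusted p = 6.7e-33). Its neighbour Ifitm2, of the same family, had a mean of 65.99 ± 5.03 TPM (SD, n = 5) in Th17p DMSO Total and 8.81 ± 1.96 TPM (SD, n = 5) in Th17n DMSO Total, again without overlap (log2 change 2.81 with SE 0.10, adjusted p = 2.1e-36). In Div.1 the changes of these 2 genes were 4.83 and 3.05. Ifih1 encodes MDA5, a sensor of long double-stranded RNA. It had 8.66, 8.68, 9.61, 9.7 and 10.1 TPM in Th17p DMSO Total and 0.106, 0.139, 0.268, 0.275 and 0.474 TPM in Th17n DMSO Total, so that Th17n cells held almost none (log2 change 3.40 with SE 0.077, adjusted p = 4.9e-48). The other RNA sensors Ddx58 (RIG-I) and Dhx58 (LGP2) stayed between means of 0.986 and 3.40 TPM in all groups.

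The guanylate-binding proteins are large GTPases that act on vacuoles of intracellular pathogens. Gbp2 had 168, 183, 190.04, 209 and 242 TPM in Th17p DMSO Total and 22.7, 24.5, 29.1, 30.4 and 37.9 TPM in Th17n DMSO Total, and no Th17n library came near the lowest Th17p library (log2 change 2.55 with SE 0.11, adjusted p = 3.8e-31). Gbp4, Gbp5, Gbp6 and Gbp7 were higher in Th17p by 2.58, 1.91, 0.99 and 0.95 in Total, each without overlap, at mean levels of 18.8, 4.62, 1.94 and 1.11 TPM in Th17p. The immunity-related GTPases did not share this: Igtp (Irgm3) was not called in either sort, and Irgm1 was lower in Th17p Total (log2 change -0.21 with SE 0.068, adjusted p = 0.00509). Irgm1 was also called lower in Div.1 (-0.18, adjusted p = 0.0224), but not without the DMSO library of well column 2 or 4 or the Methanol library of well column 10 (log2 changes -0.17 to -0.14, adjusted p from 0.0517 to 0.0907).

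Of the members lower in Th17p Total, Irf8 had the largest log2 change. IRF8 is a transcription factor best known for its role in myeloid cells, and its promoter is the first of those shown above. It had 15.1, 15.5, 19.5, 20.5 and 20.5 TPM in Th17p DMSO Total and 179.7, 186, 188, 189.6 and 204 TPM in Th17n DMSO Total. The highest Th17p value was well below the lowest Th17n value (log2 change -3.11 with SE 0.088, adjusted p = 2.7e-42), and in Div.1 the change was -2.94. Irf1, the other factor with GAS letters, went the other way, from 21.8 TPM in Th17n to 35.4 TPM in Th17p (log2 change 0.67 with SE 0.059, adjusted p = 3.4e-16). Socs1, which encodes an inhibitor of Janus kinases, was lower in Th17p (log2 change -0.60 with SE 0.11, adjusted p = 2.1e-06), and so was Ifi35 (log2 change -0.63 with SE 0.042, adjusted p = 7.4e-22), which encodes a protein that binds the STAT partner NMI. Psmb8 was higher in Th17p, with 621 TPM against 399 TPM in Total (log2 change 0.64 with SE 0.032, adjusted p = 6.4e-28).

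Each solvent alone gave the same direction for these genes. With DMSO alone the log2 change of Irf8 was -3.32 in Total and with Methanol alone -2.90. For Ifih1 the values were 3.05 and 3.74, and for Gbp2 2.75 and 2.35. Summed markers of Th1 cells, another T helper type (Tbx21, Ifng, Cxcr3 and Il12rb2), also differed, at 118 to 136 TPM in Th17p DMSO Total and 13.7 to 17.1 TPM in Th17n DMSO Total. Their part in these differences was not tested.

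**Figure D2:**
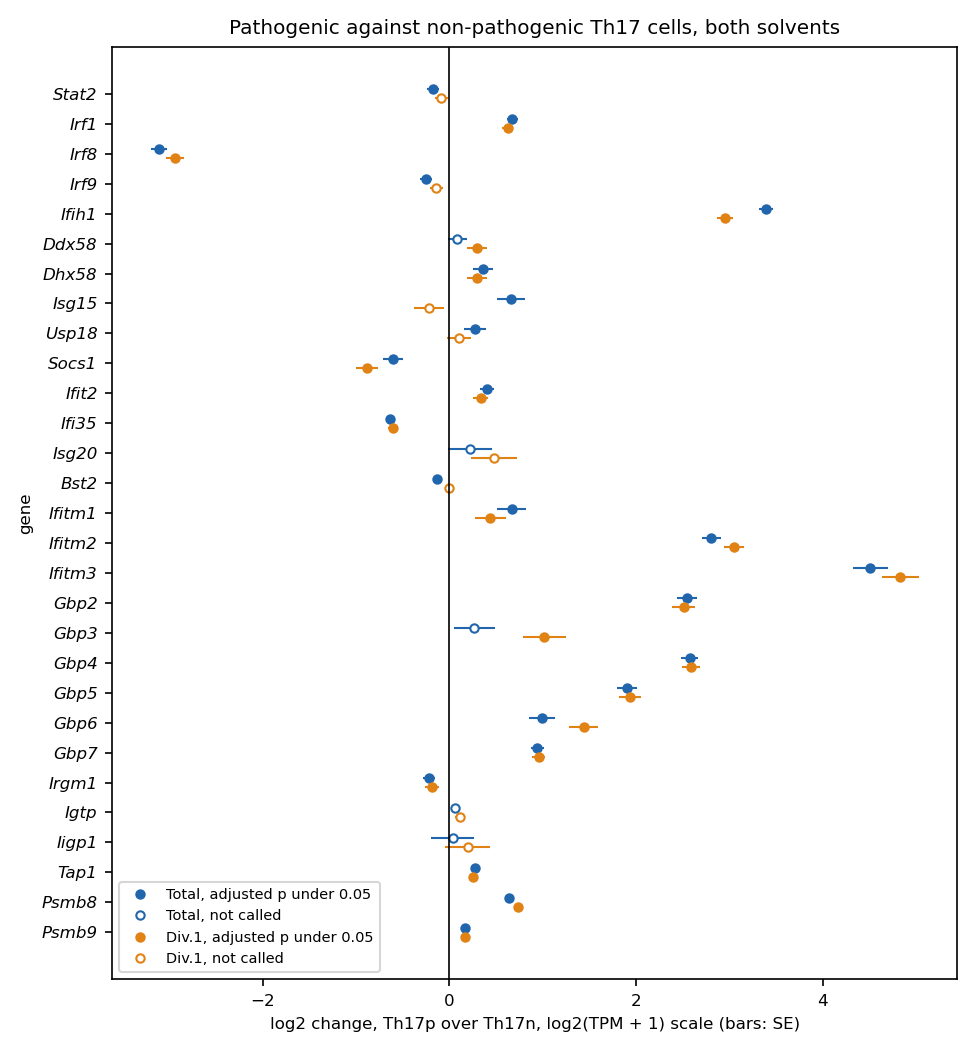
Log2 change of each of the 29 tested genes between Th17p and Th17n over both solvents, on the log2(TPM + 1) scale, in Total (blue) and Div.1 (orange), with bars of 1 SE and filled points at an adjusted p under 0.05. Ifitm3 lies furthest to the right at 4.51 and 4.83, and Irf8 furthest to the left at -3.11 and -2.94.

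Each compound was compared with its own solvent in each cell type and sort. With EGCG, members moved both ways. In Th17p Total, 9 of 29 rose and 6 fell, where of all genes 30.1% higher and 14.9% lower, 44.9% in all, were called. In Th17p Div.1, 6 rose and 11 fell (all genes: 33.7% higher and 11.9% lower, 45.6% in all). In Th17n, 13 rose and 2 fell in Total (all genes: 21.7% higher and 13.5% lower, 35.2% in all), and 9 rose and 4 fell in Div.1 (all genes: 28.1% higher and 6.77% lower, 34.9% in all). When TPM were rescaled per library by the median ratio, the calls over all genes became more even. In Th17p Total, 8 and 9 members then rose and fell, with 23.5% and 21.1% of all genes, and in Th17p Div.1 4 and 11, with 22.8% and 21% of all genes. In Th17n Total the split was 13 and 3, with 17.9% and 17.9% of all genes, and in Th17n Div.1 8 and 5, with 15.4% and 15.7% of all genes. Summed Th1 markers of Th17p Total were 118 to 136 TPM with DMSO and 62.6 to 90.1 TPM with EGCG. Summed Th17 markers were 1928 to 2779.7 TPM and 122 to 390.2 TPM in Th17p Total and 6413 to 7786 TPM and 6015 to 7478 TPM, with overlap, in Th17n Total. In Th17n Div.1 the Th17 sum was 3518 to 4439.8 TPM with DMSO and 7364 to 8497 TPM with EGCG. The part of these markers in the members' changes was not tested. The members called made up 44.8% to 58.6% of those tested with EGCG, a share not far from that of all genes in Th17p Total (51.7% against 44.9%).

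With DHEA most called members rose in Total. In Th17p Total, 18 of 29 rose and 5 fell, or 79.3%, where of all genes 20.9% higher and 26.8% lower, 47.7% in all, were called, and the median log2 change was 0.38 for the members and -0.02 for all genes. In Th17n Total, 16 rose and 2 fell (all genes: 20.8% higher and 25.3% lower, 46.1% in all), with medians of 0.37 and -0.01. In Div.1 the split was 8 and 7 in Th17p (all genes: 18.1% higher and 19.2% lower, 37.3% in all) and 13 and 3 in Th17n (all genes: 22.1% higher and 14.6% lower, 36.6% in all). Summed markers of CD8 T and NK cells moved with DHEA, from 7.63 to 11.6 TPM with Methanol to 18.98 to 28.1 TPM with DHEA in Th17p Total and from 17.5 to 25.5 TPM to 25.5 to 31.2 TPM in Th17n Total. Most of that sum was Cd8b1 and Klrd1, and Cd8a stayed at or below 0.557 TPM. Summed B cell markers in Th17n Total were 0.795 to 1.54 TPM with Methanol and 1.88 to 5.11 TPM with DHEA, with Ms4a1 (CD20) at or below 0.208 TPM in all libraries. Summed Th1 markers of Th17p were lower with DHEA without overlap, at 58.5 to 78.9 TPM against 103 to 137 TPM in Total and 59.9 to 72.8 TPM against 116 to 137 TPM in Div.1. Summed Th17 markers were lower as well, from 1306 to 1931 TPM to 101 to 290.1 TPM in Th17p Total and from 4456 to 5827 TPM to 722 to 1408 TPM in Th17n Total. The part of these cells and markers in the members' changes was not tested.

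**Figure D3:**
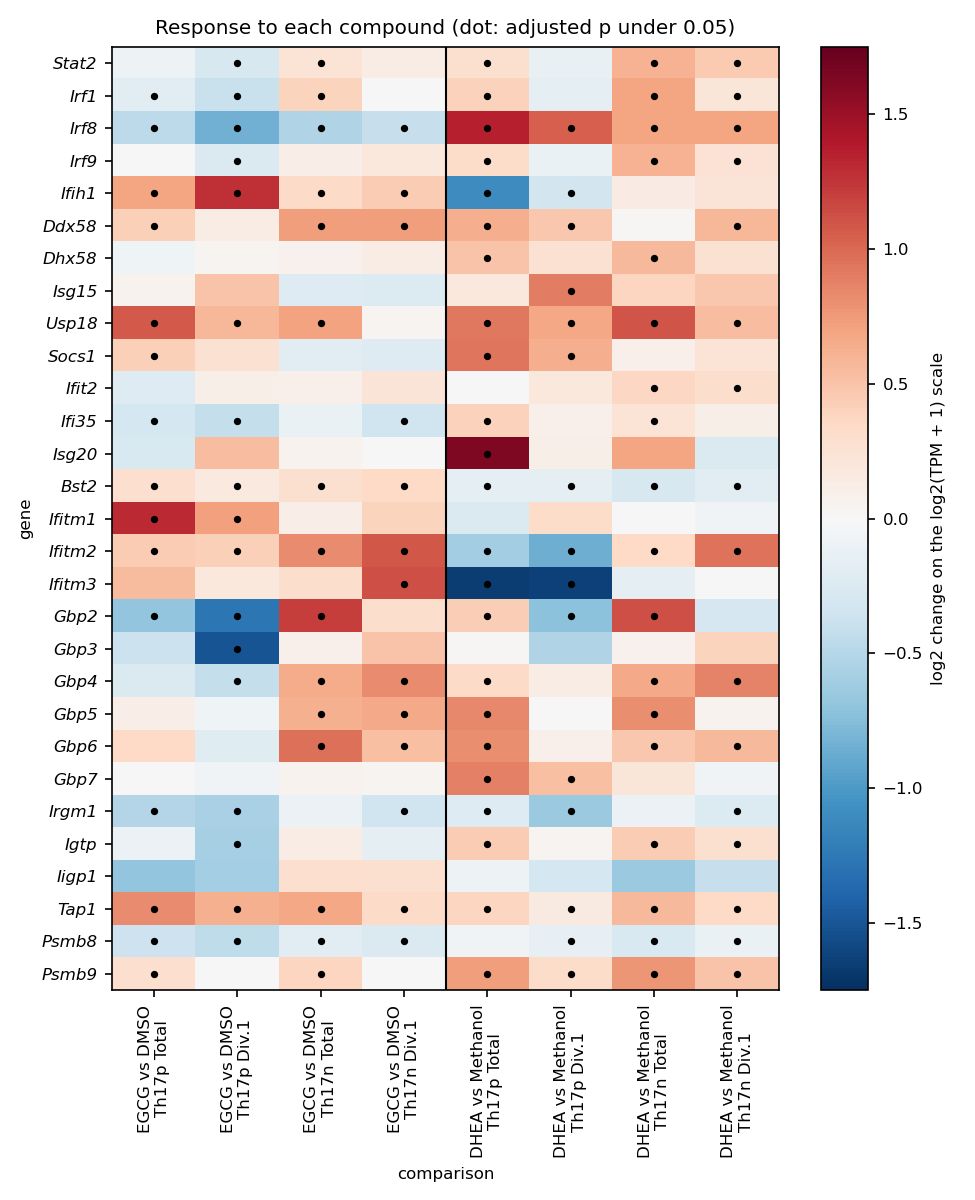
Log2 change of each of the 29 tested genes with EGCG against DMSO and with DHEA against Methanol, in each cell type and sort, on the log2(TPM + 1) scale (red higher, blue lower, with a black dot at an adjusted p under 0.05). Irf8 is blue in all 4 EGCG columns and red in all 4 DHEA columns, Tap1 is red in all 8, and Gbp2 is blue in Th17p and red in Th17n Total with EGCG.

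Among the transcription factors, Irf8 fell with EGCG and rose with DHEA in both cell types. In Th17p Total it had 8.2, 13.4, 13.6, 15.3 and 15.4 TPM with EGCG, where DMSO gave the values above, and the 2 groups overlapped by their extremes (log2 change -0.46 with SE 0.12, adjusted p = 0.00186). In Th17p Div.1 the groups no longer overlapped, with 11.3 TPM against 20.98 TPM (log2 change -0.84 with SE 0.13, adjusted p = 2.3e-07). With Methanol in Th17p Total, Irf8 had 18.5, 22.2, 23.5, 29.5 and 31.99 TPM. With DHEA it had 51.6, 64.04, 65.6, 72.9 and 74.5 TPM, all above the solvent (log2 change 1.37 with SE 0.12, adjusted p = 7.9e-15). In Th17n Total, where Irf8 was already high, it fell from a mean of 189.7 to 134 TPM with EGCG (log2 change -0.52 with SE 0.12, adjusted p = 6.2e-04) and rose from 191 to 310.3 TPM with DHEA (log2 change 0.70 with SE 0.12, adjusted p = 3.3e-06). The fall with EGCG in Th17n Div.1 (-0.40, adjusted p = 0.0143) was not called without the EGCG library of well column 1 (log2 change -0.33, adjusted p = 0.0579), and with the well A4 library placed in its labelled group the sign turned (log2 change 0.24, adjusted p = 0.514). That placement also ended the EGCG calls in Th17p Total (adjusted p = 0.143) and Th17n Total (adjusted p = 0.105).

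The calls of Irf1 with EGCG went in different directions in the 2 types, though the clearer ones came from different sorts. In Th17n Div.1 it was not called with EGCG. With EGCG it fell in Th17p Div.1, from 41.5 to 31.2 TPM (log2 change -0.39 with SE 0.089, adjusted p = 1.7e-04), and rose in Th17n Total, from 21.8 to 28.99 TPM (log2 change 0.39 with SE 0.084, adjusted p = 1.4e-04). A small fall in Th17p Total (-0.20, adjusted p = 0.0431) was not called without the DMSO library of well column 1 or 5 or the EGCG library of well column 1 or 3 or 5 (log2 changes -0.19 to -0.14, adjusted p from 0.0814 to 0.196), with no filter (adjusted p = 0.0711), with only the groups compared fitted (adjusted p = 0.103), with well A4 in its labelled group (adjusted p = 0.0785) or without columns 1 and 10 (log2 change -0.16, adjusted p = 0.17). With DHEA it rose in Total of both types, by 0.41 in Th17p and 0.69 in Th17n, the latter from 20.4, 21.2, 21.4, 22.5 and 24.2 TPM to 34, 35.5, 36.9, 36.9 and 36.98 TPM. Stat2 and Irf9, components of the complex that binds ISRE, rose with DHEA in Th17n Total by 0.61 and 0.61, each without overlap, and in Th17p Total by 0.28 and 0.32. Irf7, the factor that amplifies type I responses, did not pass the filter, and its highest group mean was 0.801 TPM, in Th17p DHEA Total.

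The RNA sensor gene Ifih1 rose with EGCG and fell with DHEA in Th17p. In Th17p Div.1 it had 5.68, 6.41, 8.33 and 9.15 TPM with DMSO and 16.7, 18.5, 18.6, 19.8 and 21.6 TPM with EGCG. The lowest EGCG library was above the highest DMSO library (log2 change 1.27 with SE 0.12, adjusted p = 8.4e-15), as in Total (0.69, adjusted p = 2.4e-07). With Methanol in Th17p Total it had 13.4, 15.003, 15.1, 15.2 and 16.03 TPM and with DHEA 5.51, 5.71, 6.1, 6.23 and 9.04 TPM, again without overlap (log2 change -1.10 with SE 0.11, adjusted p = 1.7e-13). The fall in Th17p Div.1 was smaller (-0.32, adjusted p = 0.0145) and was not called without the Methanol library of well column 8 or the DHEA library of well column 8 (log2 changes -0.26 to -0.24, adjusted p from 0.0659 to 0.093), with a pseudocount of 0.1 (log2 change -0.36, adjusted p = 0.265) or with well A4 in its labelled group (adjusted p = 0.261). In Th17n, Ifih1 was below 1 TPM in every library, and its rises with EGCG there (0.34, adjusted p = 0.0109 in Total and 0.45, adjusted p = 0.00145 in Div.1) were between values under 1 TPM. With well A4 in its labelled group neither was called, and in Div.1 the sign turned (log2 change -0.10). Ddx58 rose with EGCG in Th17n Total from 1.59 to 3.4 TPM (log2 change 0.73 with SE 0.14, adjusted p = 2.6e-05) and with DHEA in Th17p Total from 1.58 to 3.03 TPM (log2 change 0.64 with SE 0.14, adjusted p = 9.5e-05).

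Of the feedback regulators, Socs1 rose with DHEA in Th17p. It had 51.6, 54.3, 54.95, 60.3 and 62.9 TPM with Methanol and 91.7, 104, 111, 121 and 122 TPM with DHEA in Total, without overlap (log2 change 0.94 with SE 0.15, adjusted p = 5.0e-07), and in Div.1 the change was 0.64 (adjusted p = 6.0e-04). In Th17n it was not called with DHEA, at 97.3 and 104 TPM in Total. A rise with EGCG in Th17p Total (0.41, adjusted p = 0.0234) was lost on rescaling (adjusted p = 0.0693) and without the EGCG library of well column 4 or 5 or the DMSO library of well column 1 or 4 (log2 changes 0.32 to 0.38, adjusted p from 0.0542 to 0.105). Usp18 encodes a protease that removes ISG15 from proteins and dampens receptor signalling. It was low, and rose with DHEA in all 4 comparisons, from 1.12 to 3.4 TPM in Th17n Total (log2 change 1.10 with SE 0.17, adjusted p = 1.3e-07), although in Th17n Div.1 not without the Methanol library of well column 9 (log2 change 0.42, adjusted p = 0.056). With EGCG it rose in Th17p Total from 0.916 to 3.03 TPM (log2 change 1.08 with SE 0.17, adjusted p = 2.1e-07). Isg15 itself, the ubiquitin-like modifier, was called with a compound in Th17p Div.1 with DHEA alone, at 1.60 TPM against 0.421 TPM (0.90, adjusted p = 5.5e-04).

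Of the 11 antiviral effectors, 3 could be tested. Ifi35 fell with EGCG in Th17p, from 50.5, 50.9, 51.6, 52.2 and 53.8 TPM to 37.8, 40.4, 41.4, 43.5 and 46.02 TPM in Total, without overlap (log2 change -0.31 with SE 0.059, adjusted p = 1.5e-05), and in Th17n Div.1 (-0.35, adjusted p = 5.1e-06). With DHEA it rose in Total, in Th17p from 46.7 to 61.9 TPM (log2 change 0.40 with SE 0.059, adjusted p = 4.2e-08) and in Th17n from 76.6 to 90.8 TPM (log2 change 0.24 with SE 0.059, adjusted p = 4.1e-04). Ifit2, whose protein binds viral RNA, held means between 3.80 and 6.17 TPM. It rose with DHEA in Th17n Total from 4.22 to 5.73 TPM (log2 change 0.36 with SE 0.10, adjusted p = 0.0032). Isg20, an exonuclease gene listed at 0 in 22 libraries, was called in Th17p Total with DHEA, where its libraries ranged from 0.806 to 7.65 TPM.

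In Th17p, all 4 membrane restriction factors had a higher response to EGCG than to DHEA, each against its own solvent (all genes: 33.7%). In Th17n this held for 2 of the 4 (all genes: 25%), and Ifitm2 rose there with both compounds in both sorts. Ifitm3 was called with EGCG in neither sort of Th17p, and its level also differed between the solvents, as given below. Ifitm3 fell with DHEA in Th17p Total, from 54.7, 63.6, 69.5, 71.9 and 72.2 TPM to 16.3, 19.03, 19.9, 20.3 and 26.8 TPM. No DHEA library reached the lowest Methanol library (log2 change -1.66 with SE 0.26, adjusted p = 1.9e-07), and the same held in Div.1, with 78.2 against 24.4 TPM (-1.63, adjusted p = 6.2e-07). Ifitm2 fell as well in Th17p, from 111, 119, 136, 145 and 150.2 TPM to 63.9, 64.7, 65.1, 82.9 and 87.8 TPM in Div.1 (log2 change -0.85 with SE 0.14, adjusted p = 1.4e-06). In Th17n Div.1 it rose, from a mean of 13.3 to 27.04 TPM, with 1 DHEA library inside the Methanol range (log2 change 0.94 with SE 0.14, adjusted p = 1.4e-07). With EGCG, Ifitm2 rose in all 4 comparisons, by 0.44 in Th17p Total and by 1.08 in Th17n Div.1, where it went from 7.55, 8.26, 9.45 and 10.3 TPM to 15.1, 19.4, 20.9, 21.99 and 22.7 TPM. The rise in Th17p Div.1 (0.42, adjusted p = 0.0171) was lost on rescaling (adjusted p = 0.0838) and without the DMSO library of well column 2 or 5 (log2 change 0.36 in each, adjusted p from 0.0703 to 0.0727). With well A4 in its labelled group, the rises of Ifitm2 in Th17p Total, Th17p Div.1 and Th17n Div.1 were not called (adjusted p from 0.12 to 0.191).

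Bst2 encodes tetherin, which holds budding virions at the cell surface, and it moved in opposite ways with the 2 compounds by small amounts. In Th17n Total it had 150.2, 159.8, 163, 166 and 167 TPM with DMSO and 188, 192, 196, 197 and 202 TPM with EGCG (log2 change 0.27 with SE 0.055, adjusted p = 5.5e-05). With Methanol it had 169, 181, 185, 189 and 204 TPM and with DHEA 146, 147, 152, 158 and 161 TPM (log2 change -0.28 with SE 0.055, adjusted p = 2.1e-05). Neither pair of groups overlapped. Bst2 was called higher in the other 3 EGCG comparisons and lower in the other 3 DHEA comparisons, with log2 changes between 0.17 and 0.35 and between -0.20 and -0.16. The rise in Th17p Div.1 was not called after rescaling (log2 change 0.050, adjusted p = 0.474), and the fall in Th17p Div.1 was not called without the DHEA library of well column 7 or the Methanol library of well column 10 (log2 change -0.13 in each, adjusted p from 0.0653 to 0.0729). The fall in Th17n Div.1 was not called with only the groups compared fitted (adjusted p = 0.0634). Ifitm1 was listed at 0 in 35 libraries, and rose with EGCG in Th17p Total from 0.407 to 2.57 TPM (log2 change 1.30 with SE 0.22, adjusted p = 1.3e-06).

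**Figure D4:**
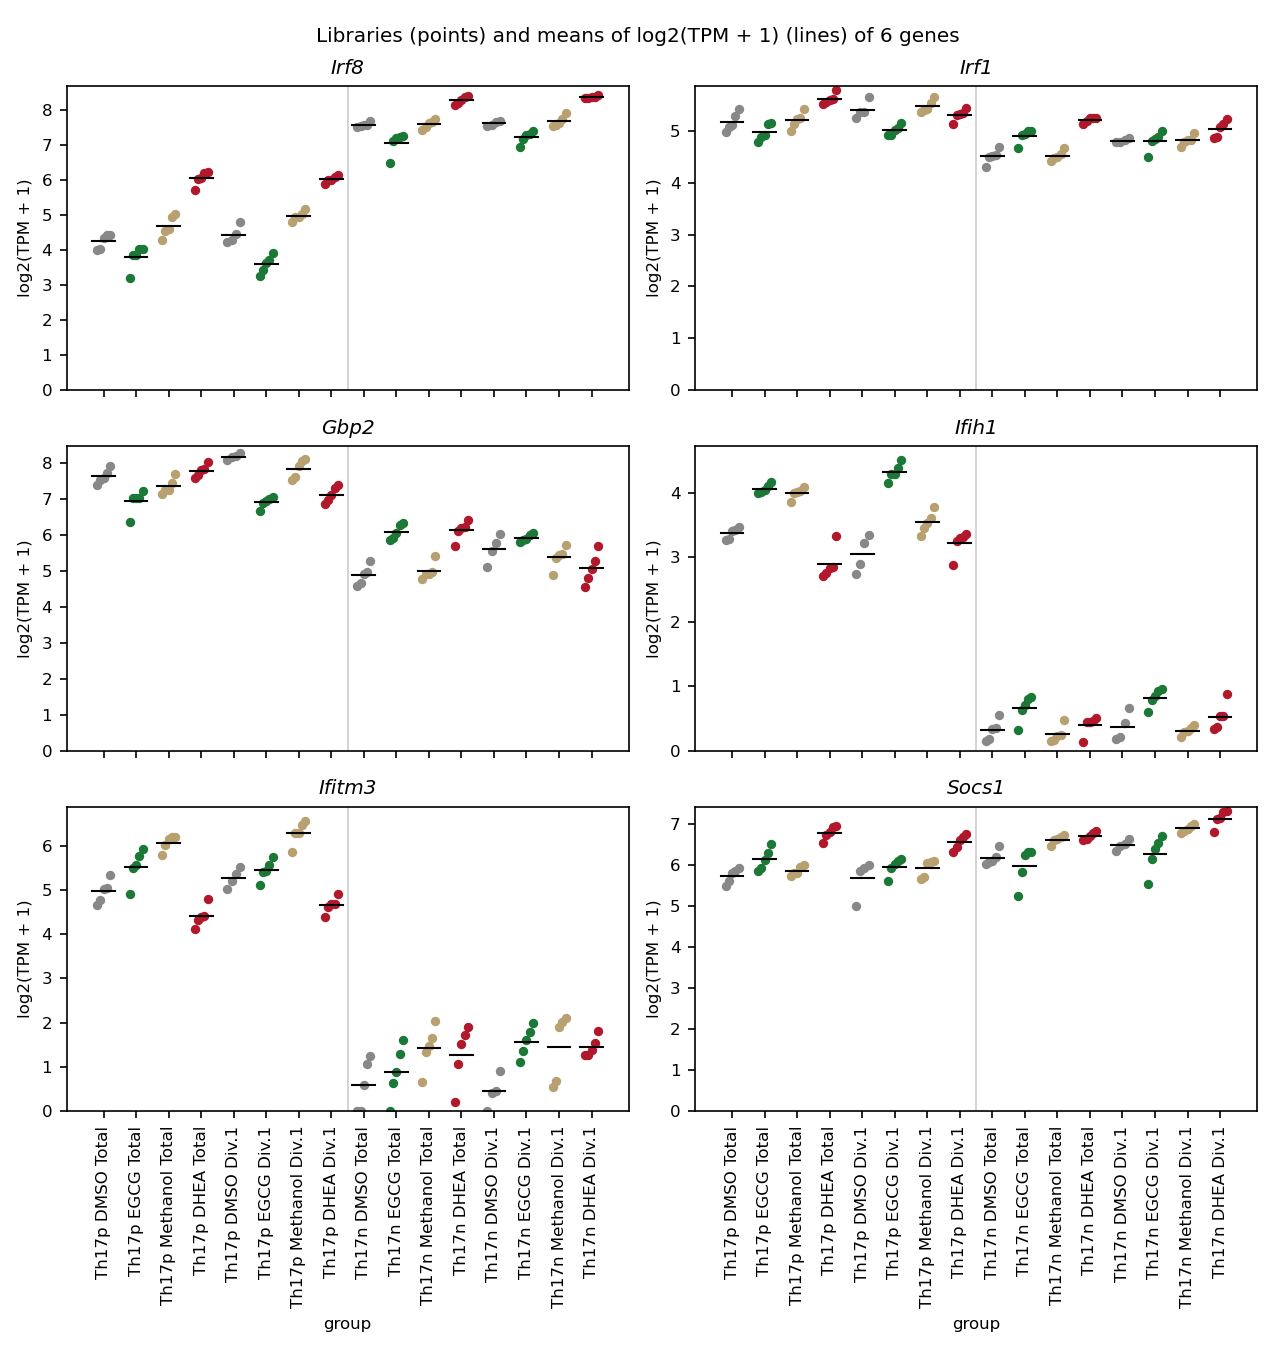
Values of the single libraries (points, ordered by value within a group) and their mean (lines) for 6 genes on the log2(TPM + 1) scale, with groups on the horizontal axis and a grey line between Th17p and Th17n. Grey marks DMSO, green EGCG, tan Methanol and red DHEA. Irf8 points are lower in Th17p, where those of Ifih1 and Ifitm3 are higher, and the red Irf8 points of each cell type and sort lie above the tan ones.

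With EGCG, the interferon-inducible GTPases that were called fell in Th17p, and in Th17n Total those called rose. In Th17p, 0 of 9 rose and 5 fell in Div.1 (all genes: 33.7% and 11.9%), and 0 rose and 2 fell in Total (all genes: 30.1% and 14.9%). In Th17n, 4 rose and 0 fell in Total (all genes: 21.7% and 13.5%), and 3 rose and 1 fell in Div.1 (all genes: 28.1% and 6.77%). After rescaling, 0 rose and 4 fell in Th17p Total (all genes: 23.5% and 21.1%), and the split in Th17n Div.1 was 2 and 2 (all genes: 15.4% and 15.7%). Gbp2 had 269, 286, 291 and 309.6 TPM with DMSO in Th17p Div.1 and 101, 118, 123, 126 and 133 TPM with EGCG, so that every EGCG library was below the lowest DMSO library (log2 change -1.26 with SE 0.17, adjusted p = 3.5e-09). In Th17n Total, it rose with EGCG from the DMSO values given above to 56.7, 59.1, 65.4, 76.6 and 79.9 TPM (log2 change 1.20 with SE 0.16, adjusted p = 7.4e-09). The means of the 2 types lay closer together with EGCG, at 124 and 67.5 TPM in Total where DMSO gave 198 and 28.9 TPM. The difference between the responses was called in both sorts (-1.90, adjusted p = 1.5e-09 in Total and -1.57, adjusted p = 1.0e-06 in Div.1, as log2 changes in Th17p minus Th17n).

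Gbp4 showed the same pattern at a lower level. It fell in Th17p Div.1 from 18.6, 20.5, 20.5 and 21.5 TPM to 12.9, 15.05, 15.4, 15.5 and 15.8 TPM (log2 change -0.42 with SE 0.14, adjusted p = 0.00866) and rose in Th17n Div.1 from 2.54, 2.67, 2.67 and 3.72 TPM to 4.89, 5.04, 6.05, 6.1 and 7.52 TPM (log2 change 0.82 with SE 0.14, adjusted p = 1.4e-06). Neither pair overlapped, and the difference between the responses was -1.24, adjusted p = 1.6e-06. With well A4 in its labelled group these 3 results were not called (log2 changes -0.42, 0.35 and -0.77, adjusted p = 0.117, 0.207 and 0.0789). Gbp5 and Gbp6 rose with EGCG in Th17n Total, by 0.62 and 0.97, from means of 0.505 and 0.364 TPM. Igtp fell in Th17p Div.1 from a mean of 103 ± 9.75 TPM (SD, n = 4) to 68.6 ± 4.83 TPM (SD, n = 5), without overlap (log2 change -0.58 with SE 0.073, adjusted p = 8.0e-10). Irgm1 fell in Th17p in both sorts, from 23.7 to 16.4 TPM in Total (log2 change -0.51 with SE 0.096, adjusted p = 9.3e-06). Gbp3 was called lower in Th17p Div.1, where 3 of 4 DMSO libraries held 1.05 to 8.73 TPM and the EGCG libraries were listed at or near 0.

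With DHEA, 6 of 9 GTPases rose and 1 fell in Th17p Total (all genes: 20.9% and 26.8%), and 5 rose and 0 fell in Th17n Total (all genes: 20.8% and 25.3%). The fall was that of Irgm1 (-0.23, adjusted p = 0.0434), with overlap. It was not called with no filter (adjusted p = 0.0725), on rescaling (adjusted p = 0.105) or without the Methanol library of well column 7 or 9 or 10 or the DHEA library of well column 8 or 9 (adjusted p from 0.0616 to 0.116). In Div.1 the counts were 1 and 2 in Th17p (all genes: 18.1% and 19.2%) and 3 and 1 in Th17n (all genes: 22.1% and 14.6%). The fall in Th17n Div.1, again of Irgm1 (adjusted p = 0.0376), was not called with no filter (adjusted p = 0.0624). It was also not called without the Methanol library of well column 6 or 9 or the DHEA library of well column 6 or 8 or 10 (adjusted p from 0.0599 to 0.0897). By the test of the difference, the response to DHEA was lower in Div.1 than in Total for 4 of the 9 in Th17p (all genes: 4.31%) and for 2 in Th17n (all genes: 1.68%). Gbp5 had 2.57, 3.88, 4.23, 4.5 and 5 TPM with Methanol and 7.2, 7.4, 7.69, 8.38 and 9.01 TPM with DHEA in Th17p Total, without overlap (log2 change 0.84 with SE 0.15, adjusted p = 4.5e-06). In Th17p Div.1 its means were 5.2 and 5.24 TPM. Gbp2 changed direction between the sorts of Th17p, falling in Div.1 from 182, 193, 239.7, 267 and 276 TPM to 115, 124, 136, 157 and 167 TPM (log2 change -0.72 with SE 0.16, adjusted p = 1.9e-04). In Th17p Total it rose (0.43, adjusted p = 0.0207), but not without the DHEA library of well column 7 or the Methanol library of well column 8 (log2 changes 0.37 to 0.38, adjusted p from 0.0619 to 0.0674) or with well A4 in its labelled group (adjusted p = 0.103). In Th17n Total it rose from 26.6, 29.3, 29.4, 30.4 and 41.8 TPM to 51.2, 68.7, 71.7, 74.002 and 84.6 TPM, without overlap (log2 change 1.13 with SE 0.16, adjusted p = 1.2e-08). Igtp rose in Th17p Total from 101 to 138 TPM (log2 change 0.45 with SE 0.069, adjusted p = 8.9e-08) and in Th17n Total from 99.5 to 135 TPM. Gbp7 rose in Th17p Total from 0.918 to 2.53 TPM (log2 change 0.88 with SE 0.092, adjusted p = 1.4e-12).

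Antigen processing genes were among the most abundant members. Tap1, a subunit of the peptide transporter that feeds MHC class I, rose with both compounds in all 8 comparisons. In Th17p Total it had 57.4, 63.3, 67.2, 68.3 and 69.98 TPM with DMSO and 109.9, 109.9, 116, 118 and 127 TPM with EGCG, without overlap (log2 change 0.82 with SE 0.058, adjusted p = 1.2e-19). Its smallest rise, with DHEA in Th17p Div.1 (0.15, adjusted p = 0.0323), was not called without the DHEA library of well column 8 or 10 or the Methanol library of well column 6 or 7 or 8 (log2 changes 0.13 to 0.15, adjusted p from 0.0522 to 0.102), with no filter (adjusted p = 0.0531) or without columns 1 and 10 (adjusted p = 0.0643). The immunoproteasome subunits Psmb8 and Psmb9 did not move together. Psmb8 fell with EGCG in all 4 comparisons, in Th17p Total from 568, 569, 571, 586 and 616 TPM to 438, 442, 452, 461 and 464 TPM (log2 change -0.37 with SE 0.045, adjusted p = 4.1e-10). The fall in Th17n Total (-0.18, adjusted p = 9.1e-04) was lost when only the groups compared were fitted (adjusted p = 0.081). Psmb9 rose with DHEA in all 4 comparisons, in Th17n Total from 81.01, 83.8, 88.2, 88.96 and 92.5 TPM to 133, 147, 156, 156 and 156 TPM (log2 change 0.77 with SE 0.064, adjusted p = 2.5e-16), where Psmb8 fell from 429.7 to 356 TPM (log2 change -0.27 with SE 0.045, adjusted p = 1.1e-06).

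The difference between the cell types in response was tested directly. For EGCG it was called for 2 members toward Th17p and 6 toward Th17n in Total, where of all genes 12.4% higher and 7.55% lower, 19.9% in all, were called, and for 2 and 11 in Div.1 (all genes: 9.12% higher and 8.38% lower, 17.5% in all). After rescaling the Total split was 1 and 8, with 11.3% and 10.5% of all genes. For DHEA the counts were 5 and 4 in Total (all genes: 8.06% higher and 6.73% lower, 14.8% in all) and 1 and 8 in Div.1 (all genes: 6.49% higher and 9.39% lower, 15.9% in all). With DHEA the response of Ifih1 in Total was lower in Th17p (-1.24, adjusted p = 6.0e-09), as was that of Ifitm2 in Div.1 (-1.80, adjusted p = 1.1e-09). The response of Irf8 to DHEA in Total was greater in Th17p (0.67, adjusted p = 0.00443), though not called with well A4 in its labelled group (adjusted p = 0.244), and so was that of Socs1 (0.85, adjusted p = 0.00347). Of members called in both types in Total, 14 rose and 1 fell with DHEA in both, and Ifitm2 fell in Th17p and rose in Th17n. Of the 3366 genes called in both types with DHEA, 95.2% changed in the same direction, as did 93.8% of these members. With EGCG 7 rose and 2 fell in both, and Gbp2 and Irf1 fell in Th17p and rose in Th17n, so that 81.8% of these members and 89.5% of the 2421 genes called in both types changed in the same direction. The fall of Irf1 in Th17p Total was not called under several alternatives, as given above.

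EGCG and DHEA were also set against each other, each relative to its solvent, over both sorts. EGCG libraries lay in plate columns 1 to 5 with those of DMSO, and DHEA libraries in columns 6 to 10 with those of Methanol. In Th17p, 6 members had a higher response to EGCG and 14 to DHEA, where of all genes 33.7% higher and 12.9% lower, 46.6% in all, were called, and in Th17n 4 and 9 (all genes: 25% higher and 11.7% lower, 36.7% in all). After rescaling the splits were 6 and 16, with 22.8% and 21.3% of all genes, and 4 and 12, with 17.8% and 17.7% of all genes. By the rule for named genes, those called in Th17p included Ifitm3 (2.02, adjusted p = 1.8e-09) and Ifih1 (1.70, adjusted p = 4.6e-21) toward EGCG and Irf8 (-1.86, adjusted p = 3.2e-20) and Gbp2 (-0.83, adjusted p = 1.3e-05) toward DHEA. Of 13 members called with each compound in Th17p Total, 6 changed in the same direction (46.2%) and 7 in opposite directions, where 77.3% of the 2854 genes called with each changed in the same direction. Among these 13, the calls of Irf1 and Socs1 with EGCG and of Gbp2 and Irgm1 with DHEA were lost under alternatives given above. In Th17n Total, 11 of 13 changed in the same direction (84.6%, against 85.9% of 2312 genes), with Bst2 and Irf8 as the exceptions.

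Cells sorted after 1 division held more of several members than unsorted cells in the solvents. In Th17p, 11 of 29 were higher in Div.1 and 2 lower, where of all genes 8.63% higher and 10.8% lower, 19.4% in all, were called, and in Th17n 7 were higher and 0 lower (all genes: 5.8% higher and 16.1% lower, 21.9% in all). After rescaling the split in Th17n was 9 and 0, with 10.1% and 11.1% of all genes. Gbp2, Psmb9, Igtp, Irf1 and Tap1 were called higher in both types. Psmb9 went from a mean of 98.004 to 124 TPM in Th17p, without overlap (log2 change 0.34 with SE 0.047, adjusted p = 1.3e-07), and Gbp2 from 181 to 260 TPM, with overlap (log2 change 0.52 with SE 0.12, adjusted p = 6.5e-04). Ifih1 was lower in Th17p Div.1 (-0.39, adjusted p = 2.4e-04), but was not called with a pseudocount of 0.1 (log2 change -0.42, adjusted p = 0.087) or with well A4 in its labelled group (adjusted p = 0.0866).

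The response to a compound differed between the sorts for some members. With EGCG, 1 response was higher and 1 lower in Div.1 of Th17p, where of all genes 1.35% higher and 1.22% lower, 2.57% in all, were called, and 0 and 5 in Th17n (all genes: 10.8% higher and 2.53% lower, 13.3% in all). With DHEA, 1 was higher and 10 lower in Th17p (all genes: 5.6% higher and 4.31% lower, 9.91% in all) and 0 and 3 in Th17n (all genes: 5.12% higher and 1.68% lower, 6.79% in all). After rescaling, the EGCG splits were 1 and 2 in Th17p, with 1.19% and 2.31% of all genes, and 0 and 7 in Th17n, with 7.35% and 6.7% of all genes. The DHEA splits were 1 and 12 in Th17p, with 4.56% and 6.36% of all genes, and 0 and 6 in Th17n, with 2.06% and 3.11% of all genes. Gbp2 had a lower response to DHEA in Div.1 in both types (-1.15, adjusted p = 3.2e-04 in Th17p and -1.43, adjusted p = 4.7e-05 in Th17n) and a lower response to EGCG in Th17n (-0.90, adjusted p = 0.00486). In Th17n Div.1 its values were 28.7, 40.4, 42.6, 43.7 and 51.7 TPM with Methanol and 22.4, 27.2, 32.5, 37.996 and 51.05 TPM with DHEA, where in Total every DHEA library was above every Methanol library. The response of Igtp to EGCG in Th17p, which was called lower in Div.1 and not called in Total, differed between the sorts (-0.48, adjusted p = 0.00257).

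The solvents also differed from each other in some members. Solvent and plate column cannot be told apart here. In Th17p, 6 members were higher with Methanol than with DMSO and 1 lower, where of all genes 8.44% higher and 5.14% lower, 13.6% in all, were called, and in Th17n 9 and 1 (all genes: 10.1% higher and 4.26% lower, 14.4% in all). After rescaling the split in Th17n was 9 and 1, with 8.28% and 6.29% of all genes. In Th17p, Ifitm3 had 72.3 TPM with Methanol and 34.3 TPM with DMSO over both sorts, without overlap (log2 change 1.06 with SE 0.19, adjusted p = 2.9e-05), and Ifitm2 had 119 and 68.5 TPM (log2 change 0.78 with SE 0.10, adjusted p = 3.2e-08). The Ifitm3 difference was not called with a pseudocount of 0.1 (adjusted p = 0.07). Ifih1 and Irf8 were higher as well (0.56, adjusted p = 2.1e-07; 0.48, adjusted p = 6.6e-05), the latter not called with well A4 in its labelled group (adjusted p = 0.0808). With DHEA, the mean of Ifitm3 in Th17p Total was below that of both solvents, at 20.5 TPM where DMSO gave 30.7 TPM and Methanol 66.4 TPM. The DHEA and DMSO libraries of Ifitm3 overlapped, and DHEA was not tested against DMSO. Ifitm2 with DHEA, at 69.1 TPM, was close to the DMSO mean of 65.99 TPM.

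Of a further list of interferon pathway genes outside the 38, 97 were in the table and 72 were tested. Their counts with DHEA in Total were 44 higher and 7 lower in Th17p and 43 and 4 in Th17n, with median log2 changes of 0.42 and 0.36. Of all genes, 20.9% and 26.8% were called higher and lower in Th17p and 20.8% and 25.3% in Th17n, with medians of -0.02 and -0.01. With EGCG in Total they were 34 and 9 in Th17p and 35 and 4 in Th17n, with medians of 0.22 and 0.23, where all genes gave 30.1% and 14.9% and 21.7% and 13.5%, with medians of 0.09 and 0.05. All 4 receptor chains rose with DHEA against Methanol in all 4 comparisons, among them Ifnar1 in Th17p Total from 14.5 to 23.9 TPM (0.69, adjusted p = 4.6e-13), Ifnar2 from 20.2 to 32.5 TPM (0.66, adjusted p = 1.7e-12), Ifngr1 from 23.7 to 34.6 TPM (0.53, adjusted p = 2.2e-10) and Ifngr2 from 20.1 to 27.7 TPM (0.44, adjusted p = 3.4e-08). Not all DHEA means were above those of DMSO. In Div.1, Ifngr1 had 29.6 TPM with DHEA and 31.5 TPM with DMSO in Th17p, and 43.8 and 44.3 TPM in Th17n. Ifngr2 had 25.8 and 26.3 TPM in Th17p Div.1. The other DHEA means of these chains were above those of DMSO, and DHEA was not tested against DMSO. With EGCG the receptor calls were fewer: Ifnar1 rose in Th17p Total, Th17p Div.1 and Th17n Div.1, Ifngr2 rose in Th17p Total (0.35, adjusted p = 3.0e-05 for Ifnar1 and 0.29, adjusted p = 1.3e-04 for Ifngr2, in Th17p Total), and Ifngr1 and Ifnar2 were called in no EGCG comparison. Ifnar2, Ifngr1 and Ifngr2 were lower in Th17p than in Th17n (-0.43, adjusted p = 1.2e-11; -0.61, adjusted p = 4.3e-19; -0.82, adjusted p = 1.2e-25, in Total).

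The kinase gene Jak2 was higher in Th17p, at 35.7 against 16.98 TPM in Total (1.04, adjusted p = 1.0e-12), and fell there with DHEA (-0.45, adjusted p = 0.0148). In Th17n Div.1 it was higher with DHEA without overlap, at 19.4 to 27.3 TPM against 13.3 to 16.4 TPM with Methanol. In Th17n Total the means were 21.95 and 18.1 TPM, with overlap. Jak1 was called with neither compound in any comparison, and Tyk2 rose with EGCG in Total of Th17p (0.53, adjusted p = 0.0292) and Th17n (0.58, adjusted p = 0.0228).

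Among the other pathway genes with the smallest p, Socs3, a feedback inhibitor of STAT3 signalling, fell with EGCG in Th17p Total from 89.1 to 44.02 TPM (-1.01, adjusted p = 5.6e-20) and in Div.1 of both types (-1.45, adjusted p = 7.8e-26; -0.67, adjusted p = 2.0e-11). Ifi47, an immunity-related GTPase like Igtp, fell with EGCG in Th17p Div.1 from 122 to 47.3 TPM (-1.35, adjusted p = 8.6e-25) and was lower in Th17p than in Th17n (-1.52, adjusted p = 4.6e-39). Slfn2, a schlafen gene linked to T cell quiescence, rose with EGCG in all 4 comparisons, in Th17p Total from 218 to 413 TPM (0.92, adjusted p = 5.0e-22). With DHEA, B2m, the light chain of MHC class I, rose in Th17p Total from 1216 to 2110.3 TPM (0.79, adjusted p = 1.6e-21), and Tapbp, which bridges the peptide transporter to MHC class I, from 54.4 to 105 TPM (0.94, adjusted p = 4.1e-17). Slfn1 rose with DHEA in Th17n Total from 3.74 to 24.2 TPM (2.43, adjusted p = 6.2e-23).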

How the data were processed

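Poly(A) RNA of cultured mouse Th17 cells was sequenced in 79 wells of a plate. The deposited table gives TPM per gene symbol. The authors trimmed reads with Trimmomatic and quantified them with kallisto on mm10, per the submitters' processing notes, with versions, options and the summing of transcripts to symbols not given in the sources used here. TPM keeps no read counts, so depth is unknown and no counting error can be given.

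TPM were used as log2(TPM + 1). Genes at 1 TPM or more in at least 4 of 78 libraries (10672) were fitted with limma 3.58.1 in R 4.3.3, with 16 group means, an intensity trend and Benjamini-Hochberg adjustment over all genes tested in each of 24 comparisons. The labels speak of 5 mice per condition, but do not tie libraries to mice, so p-values measure the spread between libraries. In the libraries used, each plate row held a single combination of cell type, sort and solvent or compound. Comparisons of a compound with its solvent, of the cell types and of the sorts therefore cannot be told apart from plate row. Members given with every library were up to 4 called each way with the largest log2 change and at least 5 TPM, and of other pathway genes those with the smallest p. The members and lists were chosen with earlier results of these data known. Alternatives were a pseudocount of 0.1, no filter, rescaling by the median ratio, fitting only the groups compared, the well column as a block, well A4 in its labelled group, and each library left out. The fit was tested on simulated data.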

Additional observations from a re-analysis of the deposited data

Results flagged for a closer look

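In 20 of 288 groups of the 18 members given with every library, 1 library lay far from the others of its group by Dixon's criterion, which chance meets in about 1 of 20 groups. Stat2 had a library at 5.68 TPM in Th17p Methanol Div.1, below the others at 6.44 to 6.73 TPM, and at 5.75 TPM in Th17n DMSO Total, below the others at 7.19 to 7.75 TPM. Irf1 had a library at 24.3 TPM in Th17n EGCG Total, below the others at 29.4 to 31.03 TPM. Irf8 had a library at 8.2 TPM in Th17p EGCG Total, below the others at 13.4 to 15.4 TPM, and at 88.03 TPM in Th17n EGCG Total, below the others at 137 to 152 TPM, and at 342 TPM in Th17n DHEA Div.1, above the others at 325 to 329 TPM. Irf9 had a library at 20.6 TPM in Th17p EGCG Div.1, above the others at 17.5 to 18.2 TPM, and at 27.4 TPM in Th17n EGCG Div.1, above the others at 24.3 to 25.2 TPM. Ifih1 had a library at 9.04 TPM in Th17p DHEA Total, above the others at 5.51 to 6.23 TPM, and at 6.35 TPM in Th17p DHEA Div.1, below the others at 8.53 to 9.23 TPM, and at 0.394 TPM in Th17n Methanol Total, above the others at 0.114 to 0.182 TPM, and at 0.0928 TPM in Th17n DHEA Total, below the others at 0.36 to 0.42 TPM. Bst2 had a library at 142 TPM in Th17n DHEA Div.1, below the others at 161 to 168 TPM. Gbp2 had a library at 41.8 TPM in Th17n Methanol Total, above the others at 26.6 to 30.4 TPM. Gbp4 had a library at 12.9 TPM in Th17p EGCG Div.1, below the others at 15.05 to 15.8 TPM, and at 3.72 TPM in Th17n DMSO Div.1, above the others at 2.54 to 2.67 TPM. Gbp5 had a library at 7.7 TPM in Th17p DMSO Div.1, above the others at 5.59 to 5.74 TPM. Irgm1 had a library at 33.4 TPM in Th17n EGCG Total, above the others at 19.4 to 21.5 TPM, and at 30.9 TPM in Th17n DMSO Div.1, above the others at 23.9 to 24.7 TPM. Psmb8 had a library at 339.9 TPM in Th17n EGCG Div.1, above the others at 305 to 315 TPM.

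For 22 results, the response to a compound differed between cell types or sorts by a test of the difference itself (limma). The response to EGCG in Th17p minus that in Th17n, in Total, was 0.60 for Socs1 (SE 0.22, adjusted p = 0.0405), -1.90 for Gbp2 (SE 0.22, adjusted p = 1.5e-09) and -0.90 for Gbp4 (SE 0.18, adjusted p = 1.3e-04) on the log2 scale. The response to EGCG in Th17p minus that in Th17n, in Div.1, was 0.82 for Ifih1 (SE 0.16, adjusted p = 1.3e-04), 0.29 for Tap1 (SE 0.087, adjusted p = 0.0137), -1.57 for Gbp2 (SE 0.24, adjusted p = 1.0e-06) and -1.24 for Gbp4 (SE 0.19, adjusted p = 1.6e-06) on the log2 scale. The response to DHEA in Th17p minus that in Th17n, in Total, was 0.85 for Socs1 (SE 0.22, adjusted p = 0.00347), 0.67 for Irf8 (SE 0.18, adjusted p = 0.00443), -1.51 for Ifitm3 (SE 0.37, adjusted p = 0.0021) and -1.24 for Ifih1 (SE 0.15, adjusted p = 6.0e-09) on the log2 scale. The response to DHEA in Th17p minus that in Th17n, in Div.1, was -1.80 for Ifitm2 (SE 0.20, adjusted p = 1.1e-09) and -1.64 for Ifitm3 (SE 0.37, adjusted p = 9.0e-04) on the log2 scale. The response to EGCG in Div.1 minus that in Total, in Th17p, was 0.58 for Ifih1 (SE 0.16, adjusted p = 0.0281) and -0.48 for Igtp (SE 0.10, adjusted p = 0.00257) on the log2 scale. The response to EGCG in Div.1 minus that in Total, in Th17n, was -0.90 for Gbp2 (SE 0.23, adjusted p = 0.00486) and -0.40 for Irf1 (SE 0.12, adjusted p = 0.0181) on the log2 scale. The response to DHEA in Div.1 minus that in Total, in Th17p, was 0.78 for Ifih1 (SE 0.15, adjusted p = 3.7e-04), -1.15 for Gbp2 (SE 0.22, adjusted p = 3.2e-04) and -0.84 for Gbp5 (SE 0.22, adjusted p = 0.00746) on the log2 scale. The response to DHEA in Div.1 minus that in Total, in Th17n, was -1.43 for Gbp2 (SE 0.22, adjusted p = 4.7e-05) and -0.47 for Irf1 (SE 0.12, adjusted p = 0.00896) on the log2 scale.

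Some of these were not called under an alternative. For Socs1, the EGCG difference between cell types in Total was not called with no filter (adjusted p = 0.0753), on rescaling (log2 change 0.56, adjusted p = 0.0529), with only the groups compared fitted (adjusted p = 0.0957) or with well A4 in its labelled group (adjusted p = 0.0537), or without the Th17n DMSO Total library of column 3 or 5 or the Th17n EGCG Total library of column 1 or 2 or the Th17p DMSO Total library of column 1 or 4 or the Th17p EGCG Total library of column 2 or 4 or 5 (log2 changes 0.41 to 0.60, adjusted p from 0.0517 to 0.17). For Ifih1, the EGCG difference between cell types in Div.1 was not called with a pseudocount of 0.1 (log2 change 0.15, adjusted p = 0.86). For Gbp4, the EGCG difference between cell types in Div.1 was not called with well A4 in its labelled group (log2 change -0.77, adjusted p = 0.0789). For Irf8, the DHEA difference between cell types in Total was not called with well A4 in its labelled group (adjusted p = 0.244). For Ifitm3, the DHEA difference between cell types in Total was not called with a pseudocount of 0.1 (log2 change -1.32, adjusted p = 0.311) or with well A4 in its labelled group (adjusted p = 0.0892). For Ifitm3, the DHEA difference between cell types in Div.1 was not called with a pseudocount of 0.1 (log2 change -1.83, adjusted p = 0.119) or with well A4 in its labelled group (adjusted p = 0.0573). For Ifih1, the EGCG difference between sorts in Th17p was not called with a pseudocount of 0.1 (log2 change 0.63, adjusted p = 0.398), with no filter (adjusted p = 0.0513) or with well A4 in its labelled group (adjusted p = 0.429), or without the Th17p DMSO Div.1 library of column 2 or 3 or the Th17p EGCG Div.1 library of column 1 or the Th17p EGCG Total library of column 5 (log2 changes 0.48 to 0.56, adjusted p from 0.0576 to 0.103). For Irf1, the EGCG difference between sorts in Th17n was not called without the Th17n EGCG Div.1 library of column 2 (log2 change -0.32, adjusted p = 0.0655). For Ifih1, the DHEA difference between sorts in Th17p was not called with a pseudocount of 0.1 (log2 change 0.85, adjusted p = 0.11) or with well A4 in its labelled group (adjusted p = 0.118). For Gbp5, the DHEA difference between sorts in Th17p was not called with a pseudocount of 0.1 (log2 change -0.98, adjusted p = 0.0921) or with well A4 in its labelled group (adjusted p = 0.0741).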

How the results depend on the processing

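Of 121 named changes, 31 lost their call in at least 1 alternative, 12 of them on leaving out a library. 1 turned its sign: Irf8 with EGCG in Th17n Div.1, at 0.24 with well A4 in its labelled group. That placement also ended the call of 18 others with the sign kept, more than any other single setting. Well A4 was not placed in Th17p DMSO Div.1 as an alternative. No called member changed sign on rescaling. The median over all genes shifted by more than 0.1 with it for EGCG in Th17p Div.1 (0.119 to 0.016), for EGCG in Th17n Div.1 (0.108 to -0.005) and for EGCG minus DHEA in Th17p (0.108 to 0.004).

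With well A4 in its labelled group, the members called went from 13 to 7 for EGCG in Th17n Div.1 and from 10 to 6 for Methanol against DMSO in Th17n. For differences in response between Th17p and Th17n they went from 8 to 5 for EGCG in Total, from 13 to 8 for EGCG in Div.1 and from 9 to 4 for DHEA in Total. For EGCG in Total they were 5 with no filter and 4 with only the groups compared fitted. For the difference between Div.1 and Total in the EGCG response of Th17p, 2 calls became 1 with a pseudocount of 0.1, with no filter or with well A4, and 1 to 3 on leaving out a library (1 without the EGCG Total library of column 5, the DMSO Div.1 library of column 3 or the EGCG Div.1 library of column 1). In Th17n, 5 calls became 3 to 7 (3 without the EGCG Div.1 library of column 2). For DHEA in Th17n, 3 calls became 6 on rescaling and 2 to 5 on leaving out a library (5 without the Methanol Div.1 library of column 10 or the DHEA Div.1 library of column 9). Counts in this paragraph are given without the share of all genes called under the same setting. They therefore do not separate a shift of the members from a shift over all genes. The cause was not tested.

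With the well column as a replicate block, those 3 calls became 8, and no other count moved by over 1.5 times. These counts, too, are given without the share of all genes called under the same setting, and do not separate the members from all genes. The column was not taken as a pairing under a rule that every same-column pair correlate above 0.1, met in 0 of 56 pairs of groups. That rule is strict. A library correlated best with its own column in 77.8% of cases (414 of 532), far more often than a random pick among columns would give. Libraries of one column were therefore more alike, and whether they share a mouse was not tested. The main fit treated them as independent, including Total and Div.1 libraries of one column. With the column as a block, the 113 named changes tested all kept their call. No paired analysis was possible for Methanol against DMSO because these groups share no column. Leaving out columns 1 and 10 was chosen after seeing the data and ended 2 of the named changes. TPM carry no depth, so members near 1 TPM could not be given a counting error.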

Other observations

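The library of well A4, labelled Th17n DMSO Div.1 and left out of all comparisons, is given beside the 4 libraries of each DMSO Div.1 group. Irf8 was 20.5 TPM in this library, 17.8 to 26.7 TPM in Th17p DMSO Div.1 and 185 to 206 TPM in Th17n DMSO Div.1. Ifih1 was 7.72 TPM in this library, 5.68 to 9.15 TPM in Th17p DMSO Div.1 and 0.129 to 0.584 TPM in Th17n DMSO Div.1. Ifitm3 was 37.7 TPM in this library, 31.4 to 44.5 TPM in Th17p DMSO Div.1 and 0 to 0.861 TPM in Th17n DMSO Div.1. Ifitm2 was 73.6 TPM in this library, 61.3 to 83.5 TPM in Th17p DMSO Div.1 and 7.55 to 10.3 TPM in Th17n DMSO Div.1. Gbp2 was 223 TPM in this library, 269 to 309.6 TPM in Th17p DMSO Div.1 and 33.7 to 63.7 TPM in Th17n DMSO Div.1. Gbp4 was 19.002 TPM in this library, 18.6 to 21.5 TPM in Th17p DMSO Div.1 and 2.54 to 3.72 TPM in Th17n DMSO Div.1. Socs1 was 57.2 TPM in this library, 30.9 to 63.05 TPM in Th17p DMSO Div.1 and 79.3 to 97.6 TPM in Th17n DMSO Div.1. Ifi35 was 58.6 TPM in this library, 52.2 to 61.4 TPM in Th17p DMSO Div.1 and 80.2 to 86.8 TPM in Th17n DMSO Div.1. Psmb8 was 669.8 TPM in this library, 626 to 653 TPM in Th17p DMSO Div.1 and 352 to 401 TPM in Th17n DMSO Div.1.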
